A study of Mus musculus with 20 samples.

Results

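Mucin genes were followed in the distal colon (DC) of mice fed resistant potato starch (RPS) at increasing levels. RPS escapes digestion in the small bowel and is fermented by bacteria further down. The 6 genes Muc1, Muc2, Muc3a, Muc4, Muc13 and Muc20 were taken by symbol from a table of 26619 genes, and all 6 were found and passed the filter on low counts that left 17893 genes to test. One of them, Muc2, encodes a secreted mucin and the other 5 encode membrane mucins. The study fed C57BL/6 mice the Total Western Diet (TWD), a rodent diet made to resemble what people in the United States eat, for 6 weeks after weaning. The mice then ate the TWD with 0, 2, 5 or 10% RPS by weight for 3 weeks, so that the 0% RPS controls also carried the TWD. Polyadenylated RNA was sequenced from 1 library per mouse, with 5 mice per diet and 20 in all. Levels are given in CPM, counts of a gene relative to the scaled total of its library. Total counts ran from 31254832 to 34974230 per mouse at 0% RPS and from 18429493 to 26595092 at 10% RPS, so depth moved with diet.

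Mucins are large glycoproteins whose long serine- and threonine-rich stretches carry dense O-linked sugars. In the colon, goblet cells secrete Muc2, which assembles into the gel that keeps bacteria away from the epithelium and which bacteria can also use as food. Membrane mucins stay anchored in the apical membrane of the colonocytes, where they form the glycocalyx and can pass signals through their cytoplasmic tails. RNA levels in a piece of bulk tissue cannot separate fewer cells of a type from less RNA per cell.

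In the GRCm39 assembly, Muc2 (ENSMUSG00000025515) lies on chr7:141276583-141308430 on the plus strand and has 48 exons. Muc1 (ENSMUSG00000042784) occupies chr3:89136354-89140688 on the plus strand with 7 exons. Muc13 (ENSMUSG00000022824) occupies chr16:33614407-33640304 on the plus strand with 12 exons. On the same chromosome, Muc4 (ENSMUSG00000118672), at chr16:32555015-32602754 on the plus strand, and Muc20 (ENSMUSG00000035638), at chr16:32597793-32617831 on the minus strand, overlap at their 3′ ends by 381 exon bases. Muc3a (ENSMUSG00000094840) lies on chr5:137243270-137246852 on the minus strand, 1.1 kb from Muc12 and 40.4 kb from Muc17 in a cluster of membrane mucins. Its annotated model is short, with 1887 exon bases, no 5′ untranslated part and a tag for an error in the reference genome, so its level per length refers to that model alone.

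Muc2, Muc4 and Muc1 are shown by the 250 bases before their annotated starts because the first pair rose and fell together across mice, whereas Muc1 ran opposite to both, as the correlations given later show. The sequences are from GRCm39 and read along the strand of the gene. Capitals mark matches on either strand to TATAAA (the TATA box), to GGGCGG (the GC box), to CACCC (the CACCC box that Krüppel-like factors bind) and to AGATAA (the GATA motif).
Muc2, chr7:141276333-141276582, plus strand: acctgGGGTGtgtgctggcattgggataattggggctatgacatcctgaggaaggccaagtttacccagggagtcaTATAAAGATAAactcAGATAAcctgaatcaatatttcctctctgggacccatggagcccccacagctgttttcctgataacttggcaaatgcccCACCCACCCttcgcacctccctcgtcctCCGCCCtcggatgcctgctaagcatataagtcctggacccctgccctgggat
Muc4, chr16:32554765-32555014, plus strand: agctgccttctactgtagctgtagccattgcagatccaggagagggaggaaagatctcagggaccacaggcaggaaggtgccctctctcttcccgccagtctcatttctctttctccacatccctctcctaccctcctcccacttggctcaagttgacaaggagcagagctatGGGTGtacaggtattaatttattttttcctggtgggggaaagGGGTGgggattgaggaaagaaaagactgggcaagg
Muc1, chr3:89136104-89136353, plus strand: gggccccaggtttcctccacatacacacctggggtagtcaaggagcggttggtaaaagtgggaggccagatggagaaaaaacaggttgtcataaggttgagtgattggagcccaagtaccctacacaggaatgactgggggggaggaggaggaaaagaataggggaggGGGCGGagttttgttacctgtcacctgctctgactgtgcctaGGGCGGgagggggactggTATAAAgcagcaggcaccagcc
The Muc2 window held 1 TATA box, 1 GC box, 3 CACCC boxes and 2 GATA motifs, with the first GATA motif sharing bases with the TATA box and a pair of the CACCC boxes lying in 1 run. The Muc1 window held 1 TATA box and 2 GC boxes, and the Muc4 window held 2 CACCC boxes alone. The TATAAA of Muc1 lies close to its annotated start, whereas that of Muc2 lies far before its own. Over the same 250 bases of 21757 protein-coding genes, a TATA box was found in 11.9%, a GC box in 36.3%, a CACCC box in 52.9% and a GATA motif in 9.61%. Motifs for CDX (TTTATG), HNF1 (GTTAAT) and STAT (TTCNNNGAA) factors were also searched and were in none of the mucin windows. Muc3a, which also rose and fell with Muc2 and Muc4, is not shown, and its 250 bases held none of the motifs searched. A match is a run of letters and not a tested binding site, and any relation of these motifs to the correlations was not tested.

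Muc13 and Muc2 were the main mucin transcripts among the 6 genes. Together they held between 95.8 and 97.7% of the members' counts in each mouse, and the 6 genes held between 0.399 and 0.729% of all counts. Per kilobase of exon sequence, the mean over the 20 mice was 955 ± 186 CPM (SD, n = 20) for Muc13, a membrane mucin of colonocytes, and 191 ± 41.1 CPM for Muc2. Muc3a followed at 55.0 ± 17.7 CPM per kb. Muc1, a widely expressed membrane mucin, stood at 4.59 ± 1.79 CPM per kb, and Muc4, which binds the ErbB2 receptor, at 3.48 ± 1.57 CPM per kb. Muc20 was close to the limit of the libraries at 0.268 ± 0.103 CPM per kb, with between 11 and 54 counts per mouse. The ranges over mice did not overlap between neighbours in this order except for Muc1 and Muc4, where Muc1 was higher in 12 of 20 mice. At 0% RPS mean Muc1 was 5.76 and mean Muc4 2.65 CPM per kb, and at 10% RPS the order was turned, with Muc1 at 3.58 and Muc4 at 5.02 CPM per kb. That change in their ratio did not pass the test given below.

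**Figure D1:**
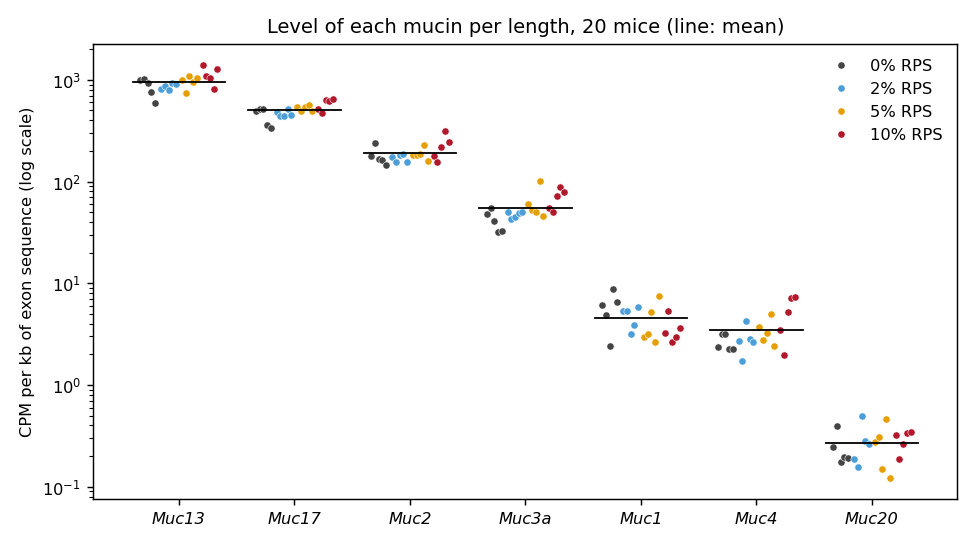
Level of each mucin in CPM per kb of exon sequence on a log axis, with 1 point per mouse coloured by diet and a line at the mean of 20 mice. Muc13 lies highest at 955 CPM per kb and Muc20 lowest at 0.268, and the points of Muc1 and Muc4 overlap. Muc17, which is not among the 6 genes, is drawn for scale.

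Muc17, another membrane mucin of the enterocyte brush border and a neighbour of Muc3a, had more counts than the 6 genes together in every mouse, by a ratio of 1.06 to 1.40. Its mean was 505 ± 77.6 CPM per kb, between Muc13 and Muc2. Of 15 further mucin and mucin-like genes listed, 10 were in the table and 5 of these were under 1 CPM in every mouse. Counts of mucins can be uncertain because stretches of 50 bases, the read length, recur within a transcript. Recurring stretches made up 44.5% of all stretches in Muc17, 20.2% in Muc2, 14.3% in Muc13, 12.4% in Muc4 and 1.27% in Muc1, and none in Muc3a or Muc20. Stretches shared with another gene made up 5.63% in Muc13 (with the antisense transcript Gm15657) and 1.93% in Muc4 (with Muc20). How reads in such stretches were counted, and whether strand was used, is not given in the sources used here.

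No mucin passed the test between 2% and 0% RPS. None of the 17893 genes was called in this comparison (0% of genes; called means an adjusted p of at most 0.05 by edgeR's quasi-likelihood test and a fold of at least 1.5), DESeq2 called 1 gene, and 253 genes had an unadjusted edgeR p under 0.05, none of them a member. Log2 fold changes of the 6 genes lay between -0.29 for Muc1 and 0.19 for Muc3a. The 95% interval of the difference ran from 0.77-fold to 1.20-fold for Muc2 and from 0.81-fold to 1.23-fold for Muc13. For Muc4 it ran from 0.68-fold to 1.66-fold and for Muc20 from 0.70-fold to 1.86-fold. Changes within these limits were therefore not excluded with 5 mice per diet.

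At 5% RPS no gene was called either (0% of 17893 genes by edgeR, with 1644 at an unadjusted p under 0.05, Muc3a the 1 member among them, and 31 called by DESeq2, none a member). Of the 6 genes, Muc3a had the smallest p, with a log2 fold change of 0.58 ± 0.20 (SE) and an edgeR adjusted p of 0.388. One mouse carried much of it. Without mouse RS10_721 the Muc3a fold change was 0.33 on the log2 scale. That library also held 7193 CPM summed over 12 genes of the exocrine pancreas, where the other 19 held between 379 and 972 CPM, and the part of this in its mucin values was not tested.

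At 10% RPS the levels of 5 of the 6 genes were higher on average and that of Muc1 was lower, but none was called. Of all genes tested, 46.8% were higher in the mean. edgeR called 7 of 17893 genes (0.0391%). An unadjusted p under 0.05 was reached by 4 of the 6 genes, Muc3a, Muc4, Muc13 and Muc1, against 15.2% of all genes tested. The members were chosen with earlier results of these data known and many were correlated across mice, so this count is a description and not a test. The median log2 fold change of the 6 genes was 0.35 and that of all genes tested was -0.01. DESeq2, which called 1.21% of the 17384 genes it adjusted, called Muc3a alone of the members. None of the 6 genes had all 5 mice above the highest control, or all 5 below the lowest. Of all genes tested, 1.13% had all 5 above and 1.15% had all 5 below.

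Across the RPS levels taken as a number, edgeR called 375 genes for a trend at an adjusted p of at most 0.05 (2.1% of those tested). Muc3a was the 1 member among them. An unadjusted p under 0.05 was reached by 5 of the 6 genes, all but Muc20, against 19.1% of all genes tested. DESeq2 called a trend for 6.01% of the genes it adjusted and for 3 members, Muc3a, Muc4 and Muc13. A test for any difference among the 4 diets called 13 genes (0.0727%) and no member, the smallest adjusted p being 0.275, for Muc3a.

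Muc2 is the secreted gel-forming mucin. In mice fed 0% RPS it stood at 2457, 3356, 2345, 2280 and 2037 CPM. At 2% RPS it stood at 2452, 2147, 2563, 2603 and 2183 CPM, and at 5% RPS at 2569, 2530, 2601, 3171 and 2222 CPM. At 10% RPS the mice held 2485, 2190, 3040, 4413 and 3403 CPM. The groups overlapped at every level, and 2 of the 5 mice fed 10% RPS lay above the highest control, mouse RS10_703. The means were 2495 ± 505 CPM at 0% and 3106 ± 870 CPM at 10% RPS (SD, n = 5). Muc2 was 1.25-fold higher at 10% RPS, with a 95% interval of 0.996-fold to 1.56-fold and an edgeR adjusted p of 0.337, and its trend had an adjusted p of 0.165. Without mouse RS10_703, or without RS10_727, the trend of Muc2 was called, and without RS10_731 its log2 fold change at 10% RPS fell to 0.16.

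Muc13, the membrane mucin with the highest level per length of the 6 genes, measured 3031, 3124, 2835, 2328 and 1798 CPM at 0% RPS. It measured 2483, 2662, 2397, 2822 and 2773 CPM at 2% RPS and 3029, 2274, 3308, 2902 and 3144 CPM at 5% RPS. At 10% RPS the values were 4287, 3316, 3153, 2479 and 3888 CPM. At 10% RPS, 4 of 5 mice exceeded every control and the fifth lay inside the control range. The difference was 1.31-fold (95% interval 1.06-fold to 1.61-fold, edgeR adjusted p = 0.211), and the slope per percent RPS was 0.04 on the log2 scale with an adjusted p of 0.0861. That trend was called without RS10_703.

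Muc3a, a membrane mucin of the enterocyte glycocalyx, was the member with the smallest p-values at 5% and at 10% RPS and over the trend. The controls held 90.04, 102.9, 77.0, 60.1 and 61.8 CPM. Mice fed 2% RPS held 94.6, 80.6, 84.6, 92.4 and 95.5 CPM, and those fed 5% held 113, 99.7, 95.7, 192.8 and 86.2 CPM. At 10% RPS the values were 103.9, 94.7, 136.4, 166 and 147.6 CPM. Of the mice fed 10% RPS, 4 of 5 were above the highest control, and the groups overlapped through RS10_727. Means were 78.3 ± 18.4 CPM at 0%, 89.5 ± 6.61 CPM at 2%, 117 ± 43.2 CPM at 5% and 130 ± 29.9 CPM at 10% RPS. Muc3a was 1.66-fold higher at 10% RPS (95% interval 1.23-fold to 2.23-fold, edgeR adjusted p = 0.113). DESeq2 gave an adjusted p of 0.0182 for the same contrast. Without RS10_721, or without RS10_727, edgeR called it too. The log2 level rose by 0.07 ± 0.02 (SE) per percent RPS, with an edgeR adjusted p of 0.0476.

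The trend of Muc3a lay close to the threshold. Leaving out 1 mouse at a time, its adjusted p ranged from 0.0118 to 0.122, and the call was lost in 15 of 20 fits. It was kept without RS10_703, RS10_721, RS10_724, RS10_725 or RS10_727. With the RPS levels of the treatment label, which disagrees for 3 mice, the adjusted p was 0.209, and with those 3 mice left out it was 0.0801. The slope itself lay between 0.07 and 0.09 under each of these changes.

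Muc4, a large membrane mucin, had the largest coefficient of variation of the 6 genes over the 20 mice pooled, at 45.2%. That value includes differences between diets. Within diets it was 18.5% at 0% RPS, the lowest of the 6 genes, 32.4% at 2%, 29.0% at 5% and 45.9% at 10% RPS, the highest of the 6. The 0% RPS mice held 30.3, 40.5, 40.9, 28.8 and 28.8 CPM. At 2% RPS the values were 34.3, 21.8, 54.2, 36.1 and 33.5 CPM, and at 5% RPS they were 47.1, 35.1, 41.4, 63.0 and 30.6 CPM. At 10% RPS the mice held 44.5, 25.4, 66.0, 90.6 and 93.7 CPM, so 4 of 5 lay above every control and 1 below every control. Muc4 was 1.90-fold higher at 10% RPS (95% interval 1.21-fold to 2.97-fold, edgeR adjusted p = 0.17). Its trend had an adjusted p of 0.0642 by edgeR and of 0.00764 by DESeq2, and edgeR called it without RS10_703, RS10_715 or RS10_727. Without RS10_727, the mouse with the lowest Muc4 at 10% RPS, Muc4 and Muc3a were both called at 10% RPS, with an adjusted p of 0.0382 for Muc4.

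Muc1, a membrane mucin of simple epithelia, had the opposite sign. The controls held 14.5, 11.4, 5.72, 20.7 and 15.5 CPM. At 2% RPS the mice held 12.6, 12.6, 7.45, 9.16 and 13.7 CPM, and at 5% RPS 6.97, 7.52, 12.4, 6.25 and 17.7 CPM. At 10% RPS they held 7.72, 12.7, 6.19, 6.95 and 8.63 CPM. All 5 of these lay within the control range, whose lowest mouse, RS10_704, was below each of them. The fold at 10% RPS was 0.62 (95% interval 0.389-fold to 0.986-fold, edgeR adjusted p = 0.317).

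Muc20, a membrane mucin that overlaps Muc4 on the opposite strand, stayed between 0.491 and 1.99 CPM. Its group means were 0.981 ± 0.368 CPM at 0%, 1.12 ± 0.532 CPM at 2%, 1.07 ± 0.553 CPM at 5% and 1.18 ± 0.268 CPM at 10% RPS. With so few counts a change could not be told from the spread, and the 95% interval at 10% RPS ran from 0.74-fold to 1.98-fold (edgeR adjusted p = 0.759).

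**Figure D2:**
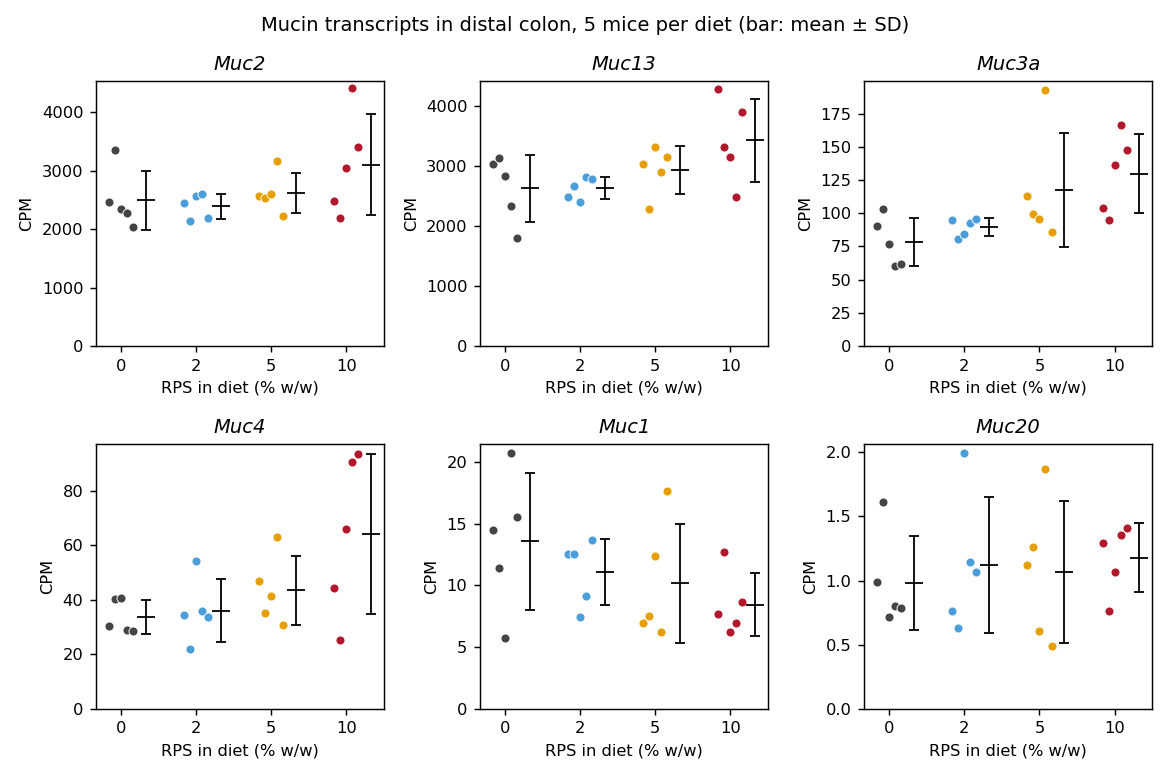
CPM of each of the 6 mucin genes against the RPS content of the diet, 1 point per mouse, with the mean and SD of the 5 mice beside them and axes that start at 0. The mice fed 10% RPS lie above all controls in 4 of 5 cases for Muc13, Muc3a and Muc4, and the Muc1 values of these mice lie inside the control range.

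**Figure D3:**
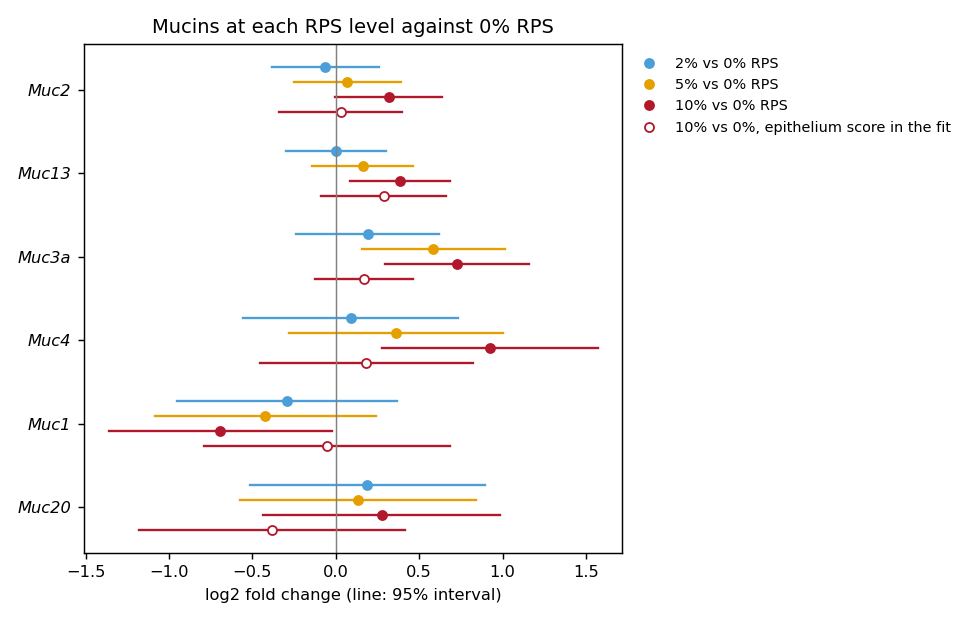
Log2 fold change of each mucin against 0% RPS, with its 95% interval, for the 3 RPS levels and for 10% RPS with the epithelium score in the fit (open points). The largest change without the score is 0.92 for Muc4 at 10% RPS, and with the score each interval crosses 0.

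The ratio of secreted to membrane mucin overlapped among the 4 diets. Muc2 CPM over the summed CPM of the 5 membrane mucins was 0.776, 1.02, 0.792, 0.935 and 1.07 at 0% RPS. At 10% RPS it was 0.559, 0.635, 0.904, 1.61 and 0.822, a range that held both the lowest and the highest mouse of the 4 diets. The group means were 0.919 ± 0.132 at 0%, 0.868 ± 0.108 at 2%, 0.856 ± 0.16 at 5% and 0.906 ± 0.417 at 10% RPS (SD, n = 5). With Muc17, the most counted membrane mucin, added to the sum, the log2 ratio was -1.86 ± 0.22 at 0%, -1.98 ± 0.13 at 2%, -2.02 ± 0.16 at 5% and -1.97 ± 0.35 at 10% RPS. In the mean of every diet the membrane mucins outweighed Muc2 with or without Muc17, and with it they did so in every mouse. CPM is not scaled by length here, and Muc2 has 13916 exon bases against 3038 for Muc13. Because Muc13 made up most of the sum without Muc17, the ratio mostly compared Muc2 with Muc13. RS10_731 had the highest Muc2 and the lowest Muc13 of its group, and RS10_725 the highest Muc13.

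Ratios between single members were compared at 10% against 0% RPS in 15 pairs by an exact two-sided permutation test, which can give no p below 0.00794 with 5 mice per group. No pair passed after adjustment over the 15, and 3 had an unadjusted exact p under 0.05. A pair alone at that smallest p adjusts to 0.119, so 1 pair by itself could not pass, whatever its ratio. The clearest was Muc2 over Muc3a. This ratio of CPM was 27.3, 32.6, 30.5, 37.94 and 32.97 in the controls and 23.9, 23.1, 22.3, 26.6 and 23.1 at 10% RPS, so the groups did not overlap. The log2 ratio was lower by 0.43 on average (exact p = 0.00794, adjusted p = 0.119), so that Muc3a gained on Muc2 in the mean. The log2 ratio of Muc1 over Muc3a differed by -1.34 (exact p = 0.0317, adjusted p = 0.159), and that of Muc3a over Muc20 by 0.45 (exact p = 0.0317, adjusted p = 0.159). For Muc1 over Muc4, the pair whose order per length was turned, the difference was -1.39 (exact p = 0.0794, adjusted p = 0.159). For Muc2 over Muc13 the difference was -0.09 (exact p = 0.794, adjusted p = 0.873), with an SD of 0.63 among the mice fed 10% RPS.

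**Figure D4:**
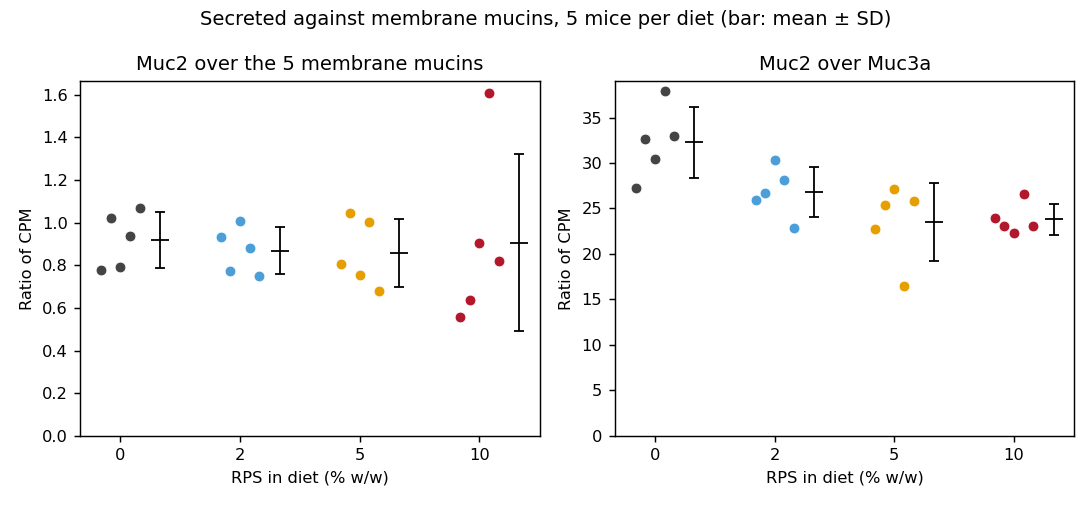
Ratio of Muc2 CPM to the summed CPM of Muc1, Muc3a, Muc4, Muc13 and Muc20 (left) and to Muc3a CPM (right), 1 point per mouse, with mean and SD of 5 mice. The left ratio spreads from 0.559 to 1.61 at 10% RPS, whereas every right-hand ratio at 10% RPS lies below the lowest control ratio of 27.3.

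Levels of the members were correlated from mouse to mouse, but no pair with Muc13 passed the test. By permutation tests of Pearson's r adjusted over the 15 pairs, all 10 pairs without Muc13 passed and none of the 5 pairs with it did, and the difference between these sets was not tested. Over the 20 mice, log2 CPM of Muc2 and Muc4 had a Pearson r of 0.86 and a Spearman rho of 0.86. Muc2 and Muc3a had an r of 0.80 and a rho of 0.76, and Muc3a and Muc4 an r of 0.79 and a rho of 0.74. Each of these passed a permutation test adjusted over the 15 pairs, with p-values between 0.0003 and 0.0005 for r and between 0.00015 and 0.0018 for rho. With diet means subtracted the 3 correlations were 0.81, 0.82 and 0.72. They were 0.76, 0.73 and 0.72 without the 2 mice farthest from the median of the first gene.

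Muc1 ran opposite to these genes. Its r was -0.69 with Muc4 and -0.63 with Muc3a, with permutation p-values of 0.00217 and 0.00695 adjusted over the pairs and a rho of -0.80 and -0.58. With Muc2 its r was -0.53 and its rho -0.64 (adjusted permutation p = 0.0199 and 0.00667), with an r of -0.45 within diets and -0.62 without the 2 mice farthest from the Muc1 median. For Muc4 and Muc3a, r within diets was -0.62 and -0.52, and without those 2 mice -0.73 and -0.71. Muc13 had an r of 0.23 with Muc2 and 0.29 with Muc4, neither of which passed (adjusted permutation p = 0.377 and 0.277, with a rho of 0.28 for both). Its r with Muc1 was -0.22 and with Muc3a 0.43 (adjusted permutation p = 0.386 and 0.0829). With Muc3a its rho was 0.45 (adjusted permutation p = 0.0651). That r was 0.69 without the 2 mice farthest from the Muc3a median, but 0.11 within diets. Muc20 had an r of 0.63 with Muc4 (adjusted permutation p = 0.00695, rho 0.63), the gene on its opposite strand. Its r was 0.61 with Muc2 (adjusted permutation p = 0.00804, rho 0.67) and 0.56 with Muc3a (adjusted permutation p = 0.0158, rho 0.56). With Muc1 it was -0.58 (adjusted permutation p = 0.0153) and with Muc13 0.08 (adjusted permutation p = 0.754). Reads from the bases shared with Muc4 could enter either count if strand was not used, and their part in these values was not tested.

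The genes most like each member were looked up among 11975 tested genes of at least 5 CPM, by Pearson's r over the 20 mice, as a description. Muc2 was most like Fcgbp, which encodes another protein of the mucus gel, with an r of 0.91, then Gcg, the glucagon precursor of enteroendocrine cells, at 0.88 and Sidt1 at 0.86. Muc3a was most like Ddah1 (0.91), Cdx2 (0.90), a transcription factor of intestinal identity that is also in the epithelium list used for the score of epithelial genes, and Clca4a (0.89). Muc4 was most like Anxa4, Tspan13 and Cstf2, each with an r of 0.92. Muc13 was nearest to Akap13 (0.86), Irf1 (0.84), an interferon-regulated transcription factor, and Septin11 (0.84). Muc1 was nearest to Cfb (0.86), complement factor B, then Cyp4v3 (0.83) and Ceacam18 (0.81). Muc20 was nearest to Appbp2 (0.85), Nxpe2 (0.85) and Sec24a (0.85).

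Several members followed a score of epithelial genes across mice, with Muc1 opposite in sign. The epithelium score, the mean log2 CPM of 14 epithelial genes such as Krt8, was 9.40 ± 0.11 at 0% RPS, 9.46 ± 0.06 at 2%, 9.63 ± 0.17 at 5% and 9.63 ± 0.11 at 10% RPS (SD, n = 5). All 5 mice at 5% and at 10% RPS were above the highest control (exact permutation p = 0.00794 for each, adjusted over 3 levels p = 0.0119). edgeR called none of the 14 genes at any RPS level or for a trend, and DESeq2 called Cdx2 at 10% RPS and trends of Cdx2 and Tspan8, all upward. Lgals4, among the highest of the 14, had a log2 fold change of -0.02 at 10% RPS. The summed level of the 14 genes ran from 17428 to 22305 CPM at 0% RPS and from 19815 to 23703 CPM at 10% RPS, so that the summed levels overlapped. The smooth muscle score of 10 genes differed by -0.04 between 10% and 0% RPS (exact permutation p = 0.77).

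Muc3a followed this score closely over the 20 mice, with a Pearson r of 0.90 and a Spearman rho of 0.83 (permutation p = 1e-05, the smallest that the permutations can give, and p = 2e-05; adjusted over the 6 genes, 6e-05 and 0.00012). With diet means subtracted r was 0.83, and without the 2 mice farthest from the median score, RS10_721 and RS10_784, it was 0.84. Muc4 had an r of 0.74 and a rho of 0.70 (adjusted permutation p = 0.00063 and 0.00264) and Muc2 an r of 0.59 and a rho of 0.51 (adjusted permutation p = 0.0126 and 0.0372). Muc1 fell as the score rose, with an r of -0.64 and a rho of -0.57 (adjusted permutation p = 0.00344 and 0.0207). Within diets these 3 genes had an r of 0.68, 0.53 and -0.55, and without the same 2 mice 0.65, 0.48 and -0.66. For Muc13, r was 0.47 and rho 0.49 (adjusted permutation p = 0.0377 and 0.0372), but within diets r was 0.22. Against the score of 11 surface colonocyte genes Muc13 had an r of 0.68 and a rho of 0.62 (adjusted permutation p = 0.0017 and 0.00786), and an r of 0.51 within diets and 0.48 without RS10_708 and RS10_784. Muc3a and Muc4 had a higher r with that surface score, at 0.86 and 0.72 (adjusted permutation p = 6e-05 and 0.00096). Muc2 had an r of 0.61 with it and Muc1 -0.65 (adjusted permutation p = 0.00491 and 0.00298). For Muc20, r with the epithelium score was 0.48 (adjusted permutation p = 0.0353) and rho 0.38 (adjusted permutation p = 0.102). That r fell to 0.26 without RS10_721 and RS10_784, so its pooled relation rested on them, although r within diets was 0.58.

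With the epithelium score as a covariate in the edgeR fit, the log2 fold change at 10% RPS went from 0.73 to 0.17 for Muc3a, from 0.92 to 0.18 for Muc4, from 0.32 to 0.03 for Muc2 and from -0.69 to -0.05 for Muc1. Muc13 changed least of these, from 0.38 to 0.29. The Muc20 value went from 0.28 to -0.38. No trend among the 6 genes was called in that fit, the smallest adjusted p being 0.798, for Muc13. Because the score itself differed between diets, the score and the diet cannot be told apart by this fit.

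**Figure D5:**
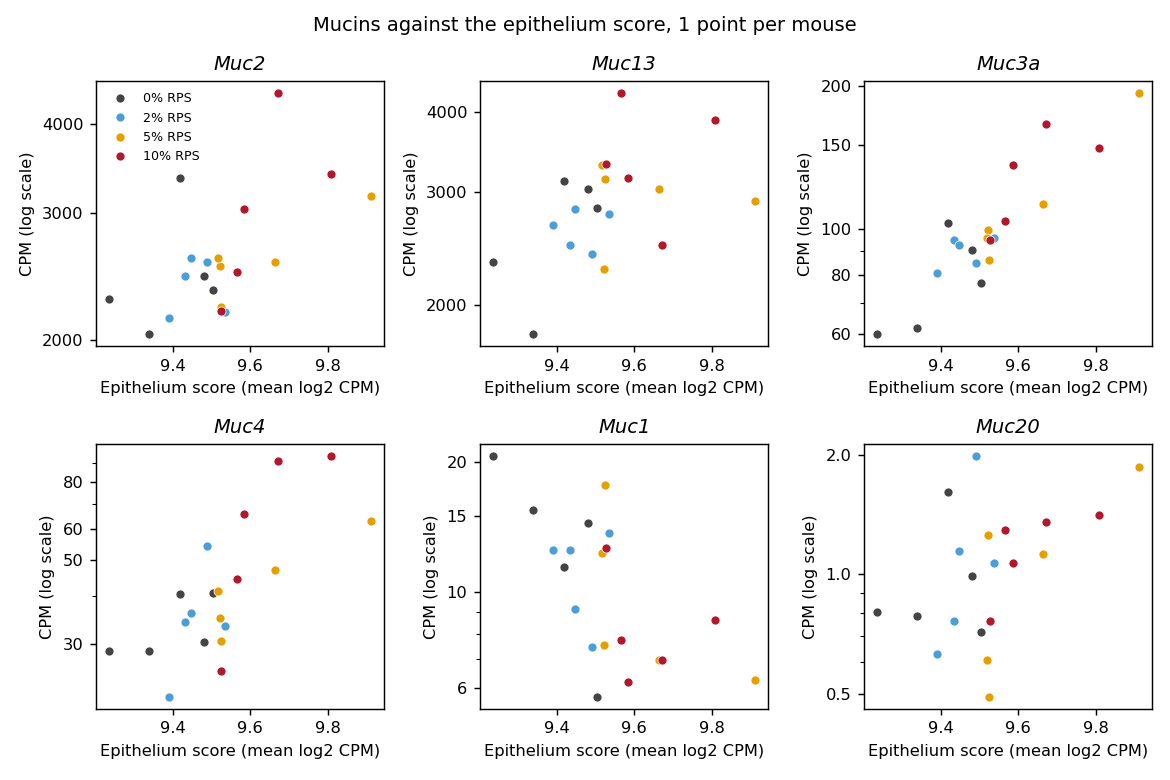
CPM of each mucin on a log axis against the epithelium score (mean log2 CPM of 14 epithelial genes), 1 point per mouse coloured by diet. Muc3a lies closest to a line (r = 0.90 on the log2 scale), Muc1 slopes down (r = -0.64), and the scatter is wide for Muc13 (r = 0.47).

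Mature surface colonocytes are the cells that carry much of the membrane mucin. Of 11 tested genes of a list for these cells, 5 had a trend called by edgeR, all upward, and 1 was called at 10% RPS. DESeq2 called 6 trends and 4 genes at 10% RPS, all upward. Dhrs9 was in both of these sets, and edgeR did not call it. The trends that edgeR called included those of Krt20, a keratin of differentiated cells, Car4, a carbonic anhydrase, and Aqp8, a water channel. Slc26a3, the chloride-bicarbonate exchanger, and Ceacam20 made up the rest. Car4 went from 1116 ± 169 to 1825 ± 131 CPM (log2 fold change 0.71, edgeR adjusted p = 0.0102). The median log2 fold change of the list at 10% RPS was 0.57, against -0.01 for all genes tested. Neither edgeR nor DESeq2 called any of 10 smooth muscle genes, for a trend or at any RPS level. Of 10 genes of the crypt base and cell cycle, edgeR called none and DESeq2 called Mcm2 at 10% RPS and for a trend, upward in both. Of 8 macrophage genes edgeR called none, but all 8 were lower at 5% RPS at an unadjusted p under 0.05. In either direction 1644 of the 17893 genes tested reached that. The macrophage score differed by -0.55 at 5% RPS (exact permutation p = 0.0238) and by -0.35 at 10% RPS (exact permutation p = 0.103). Neither p was adjusted over lists or RPS levels. DESeq2 called Cd68 and Mrc1 lower at 5% RPS, and Cd68 lower at 10% RPS and for a trend. Of 8 squamous genes in the table, summed levels ran from 2.95 to 7.48 CPM at 0% and from 5.08 to 12.5 CPM at 10% RPS. Of the 5 squamous genes tested edgeR called none, and DESeq2 called an upward trend of Dsg3. The summed exocrine pancreas genes ran from 467 to 635 CPM at 0% and from 379 to 972 CPM at 10% RPS, most of it from Cela1, and the part of either list in the mucin values was not tested. Of 6 plasma cell genes, edgeR called an upward trend for Tnfrsf17, from 0.912 to 2.12 CPM. Of 6 clock genes neither tool called any, and all 6 were lower in the mean at 10% RPS.

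The rest of the mucus pathway was followed in a pair of lists. Genes that DESeq2 alone called in these and the other lists are named after their values were seen. Of 24 genes for mucus proteins and goblet cells, edgeR called none at any RPS level and 1 trend. That was Best2, a bestrophin channel of goblet cells, which fell from 81.8 ± 21.7 CPM at 0% to 48.7 ± 7.6 CPM at 10% RPS (log2 slope -0.08 per percent, edgeR adjusted p = 0.0117). DESeq2 called Best2 lower and Clca1 and Nlrp6 higher at 10% RPS, and for the trend also Gfi1 and Klf4 higher. The median log2 fold change of these genes at 10% RPS was 0.10. Of 29 tested genes that build mucin O-glycans, edgeR called none in any comparison and DESeq2 called upward trends of B4galnt2 and C1galt1, and the median log2 fold change at 10% RPS was 0.14. The highest of them, B3gnt7, held 1005 ± 132 CPM at 0% and 964 ± 66.2 CPM at 10% RPS, and St6galnac6 held 730 ± 53.4 and 808 ± 82 CPM.

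Among mucins that are not members, Muc17 went from 6346 ± 1254 CPM at 0% to 8190 ± 1084 CPM at 10% RPS (1.29-fold, 95% interval 1.09-fold to 1.53-fold, edgeR adjusted p = 0.14). Muc12, beside Muc3a on chromosome 5, went from 2.35 ± 0.662 to 3.73 ± 1.12 CPM (1.60-fold, edgeR adjusted p = 0.125). Both had 4 of 5 mice above every control, as Muc3a did. Muc16, at under 1.6 CPM in each mouse, had a log2 fold change of 0.94 and an edgeR adjusted p of 0.452. The sialomucins Emcn, of endothelium, and Cd164 had log2 fold changes of -0.44 (edgeR adjusted p = 0.124) and 0.02 (adjusted p = 0.903). edgeR called none of these 5 genes in any contrast. DESeq2 called Muc12 at 10% RPS (adjusted p = 0.039) and trends of Muc12 (adjusted p = 0.00924), Muc17 (adjusted p = 0.0124) and, downward, Emcn (adjusted p = 0.0145).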

How the data were processed

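DC RNA was sequenced from 20 mice as stranded, polyadenylated single-end 50-base libraries. The authors trimmed bases of low quality, mapped reads to GRCm39 in CLC Genomics Workbench and deposited raw counts per gene, 1 column per mouse. The annotation release, strand setting and treatment of reads with several matches are not given in the sources used here. Of 26619 identifiers, 26338 were found in GENCODE vM39, which gave symbols, positions and exon lengths.

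Groups followed the description label. The treatment label names another RPS level for 3 mice: RS10_717 (5% by description, 2% by treatment), RS10_725 (10% and 5%) and RS10_748 (2% and 10%). Mice are the replicates. Mouse numbers are unique, and the labels do not say whether mice shared a cage.

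Counts were fitted in edgeR 4.0.16 (R 4.3.3): filterByExpr at a minimum count of 10, TMM scaling and the robust quasi-likelihood test over the 4 diets, Benjamini-Hochberg over all 17893 genes. Called means an adjusted p of at most 0.05 and a fold of at least 1.5; trend and any-diet tests had no fold limit. CPM uses TMM-scaled library sizes, and log2 CPM a prior count of 2. Fits were tested on simulated data. Scores are mean log2 CPM of a list. Correlations used 100000 permutations, and ratios an exact permutation test. Where a symbol had several identifiers, the one with the highest CPM was used. Alternatives were DESeq2 1.42.0, limma-voom (limma 3.58.1), RLE size factors, no filter, thinned libraries, the treatment label, omission of mice, and covariates. Named genes were the 6 members, called genes of each list (at most 6) or otherwise its 2 highest, mucins of at least 1 CPM in 1 mouse, and the 3 genes most like each member. The members and lists were chosen with earlier results of these data known. The correlations among members and the ratio with Muc17 were added after the data were seen.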

Additional observations from a re-analysis of the deposited data

Results flagged for a closer look

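One value stood far from the rest of its group. Muc3a in mouse RS10_721, fed 5% RPS, was 192.8 CPM, and the next mouse of the group held 113 CPM, a gap of 0.749 of the group's range where 0.71 is Dixon's limit for 5 values. It was the 1 flag among 32 groups of 5 that were looked at, and chance flags about 1 in 20 groups. The same mouse had the highest epithelium score of the 20, at 9.91, and held 7193 CPM of exocrine pancreas genes.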

How the results depend on the processing

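The count of members called at 10% RPS was 0, and 1 with DESeq2 (Muc3a). Without single mice it ranged from 0 to 2, being 1 without RS10_721 and 2 without RS10_727. At 2% and 5% RPS and for any diet difference it was 0 under each alternative run, single mice left out included. The count with a trend was 1, 3 with DESeq2, and 0 without the filter on low counts, with thinned libraries, by the treatment label, without the 3 mice with disagreeing labels, with the epithelium score or with Dbp as covariate. Without single mice it ranged from 0 to 4, the 4 (Muc2, Muc3a, Muc4 and Muc13) without RS10_703.

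Signs of uncalled members turned in places, and the cause was not tested. With the epithelium score the log2 fold change was -0.105 for Muc4, -0.0204 for Muc13 and -0.00323 for Muc20 at 2% RPS, then 0.151 for Muc1, -0.206 for Muc2, -0.0117 for Muc3a, -0.331 for Muc4 and -0.573 for Muc20 at 5% RPS. For Muc20 it was -0.382 at 10% RPS, with a slope of -0.0309. Without the 3 mice with disagreeing labels Muc13 was -0.01548 at 2% RPS and the Muc2 over Muc13 difference 0.0618. Without single mice, fold changes at 2% RPS ranged from -0.128 to 0.0703 for Muc2, from -0.107 to 0.224 for Muc4, from -0.108 to 0.0752 for Muc13 and from -0.118 to 0.441 for Muc20. At 5% RPS they ranged from -0.0116 to 0.201 for Muc2 and from -0.158 to 0.386 for Muc20. Ratio differences at 10% RPS ranged from -0.343 to 0.0618 for Muc2 over Muc13, from -0.0642 to 0.126 for Muc2 over Muc20, from -0.249 to 0.0619 for Muc3a over Muc4 and from -0.0212 to 0.279 for Muc13 over Muc20. No pair ratio passed under any alternative run. With the surface colonocyte score Muc20 had an r of 0.336 and no longer passed. The prior count does not enter the secreted to membrane ratio. No paired analysis was possible because mouse numbers are unique. Depth limits Muc20, at 11 to 54 counts per mouse, and with libraries thinned to the smallest total the Muc3a trend had an adjusted p of 0.0522.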
